A study of Mus musculus with 2207 samples.

Results

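The cortical layer transcription factors are 9 genes, *Cux1*, *Cux2*, *Rorb*, *Etv1*, *Fezf2*, *Bcl11b*, *Tbr1*, *Foxp2* and *Tle4*, which were picked by name from the 52636 genes of 2 expression tables of single cortical nuclei. All 9 genes were found, and all 9 passed the filters on low values of every test. The assay was RamDA-seq, which reads full-length total RNA of single nuclei sorted from mouse cortex, and a value is given as RPKM, the reads of a gene scaled to its exon length and to the read total of the nucleus. The 2207 nuclei fall into 6 pools, and each pool was made from 3 male C57BL/6 mice of 14 weeks of age. By the sample records, the mice had received tamoxifen 2 times at 100 mg/kg from 3 weeks of age. The methods text gives an interval of 1 week between the doses. In 96-well plates, the WT pool (*Ehmt1*+/+) and the pool labelled *Ehmt1*Δ/+ were measured. For these 2 pools the paper's text names no tamoxifen, and the sample records were followed. In 384-well plates, 4 pools carried the *Ehmt1* iTg allele, from which FLAG-tagged GLP can be induced. Of these, the WT pool (*Ehmt1*+/+; iTg) and the pool labelled *Ehmt1*Δ/+ (*Ehmt1*Δ/+; iTg) had no *CamKII-CreER*, and the 2 pools called iTg (*Ehmt1*+/+) and *Ehmt1*Δ/+; iTg had it, as the labels give it. The methods text can be read as *CamKII-CreER* in all 4 pools, and the labels were followed. *CamKII-CreER* is a tamoxifen-dependent recombinase under a promoter of forebrain excitatory neurons, which limits the cells in which GLP can be induced. The labels do not say which of the 3 mice a nucleus came from, and a pool is therefore 1 sample.

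Projection neurons of the neocortex are arranged in layers that differ in birth date and in the targets of their axons, and transcription factors mark and instruct these identities. *Cux1* and *Cux2* encode homeodomain proteins of upper layer neurons and *Rorb* encodes an orphan nuclear receptor of layer 4. *Etv1*, an ETS factor, *Fezf2*, a zinc finger factor that instructs subcerebral projection neurons, and *Bcl11b*, a zinc finger factor also called CTIP2, are known for layer 5. *Tbr1*, a T-box factor, *Foxp2*, a forkhead factor, and *Tle4*, a Groucho family corepressor, are known for corticothalamic neurons of layer 6. Several of these factors repress one another during development, and none of them is restricted to the cortex.

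In the GENCODE M21 annotation of GRCm38 (mm10), *Cux1* and *Cux2* lie on chromosome 5 (136248135 to 136567490 and 121856366 to 122050102, minus strand), *Rorb* and *Tle4* on chromosome 19 (18930605 to 19111196 and 14448150 to 14598051, minus strand), and *Etv1* and *Bcl11b* on chromosome 12 (38779380 to 38870484, plus strand, and 107910403 to 108003602, minus strand). *Fezf2* is on chromosome 14 (12342094 to 12348189, minus strand), *Tbr1* on chromosome 2 (61802930 to 61814114, plus strand) and *Foxp2* on chromosome 6 (14901349 to 15441977, plus strand). All are protein-coding genes, and their values count reads over all exons. RefSeq promoters (GRCm38.p6, 250 bases before and 50 after a start site) were matched by symbol for 8 of the 9 genes. Both strands were searched for ATCGAT, which Cux1 protein binds. The same was done for CCAAT, a common promoter element. AGGTCA was searched as the core element of nuclear receptor sites and AGGTGTGA as a T-box site. No motif contains another. The promoters of *Cux1*, *Cux2* and *Tle4* are shown because the levels of *Cux1* and *Cux2*, and of *Foxp2* and *Tle4*, went together across nuclei, with the matched motif, or its reverse complement, in capitals.
Cux1, chr5:136565932-136566231, minus strand: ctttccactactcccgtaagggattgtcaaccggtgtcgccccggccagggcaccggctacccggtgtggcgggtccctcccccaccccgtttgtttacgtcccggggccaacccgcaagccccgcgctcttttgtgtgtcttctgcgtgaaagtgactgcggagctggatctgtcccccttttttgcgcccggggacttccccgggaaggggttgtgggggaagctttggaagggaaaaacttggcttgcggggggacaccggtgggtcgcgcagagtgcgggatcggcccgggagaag
Cux2 first start site, chr5:122049802-122050101, minus strand: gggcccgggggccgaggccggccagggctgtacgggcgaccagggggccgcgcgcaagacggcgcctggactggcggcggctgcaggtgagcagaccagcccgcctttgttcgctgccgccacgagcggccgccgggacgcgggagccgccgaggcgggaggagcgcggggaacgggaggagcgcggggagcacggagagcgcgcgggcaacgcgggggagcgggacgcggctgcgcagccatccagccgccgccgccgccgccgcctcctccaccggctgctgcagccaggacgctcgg
Cux2 second start site, chr5:122047776-122048075, minus strand: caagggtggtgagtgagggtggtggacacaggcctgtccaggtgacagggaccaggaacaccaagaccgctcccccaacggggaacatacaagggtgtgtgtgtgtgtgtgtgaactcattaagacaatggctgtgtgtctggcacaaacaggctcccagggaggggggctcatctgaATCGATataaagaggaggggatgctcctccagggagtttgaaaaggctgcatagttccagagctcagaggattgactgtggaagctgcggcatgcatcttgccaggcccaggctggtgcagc
Tle4 first start site, chr19:14598134-14598433, minus strand: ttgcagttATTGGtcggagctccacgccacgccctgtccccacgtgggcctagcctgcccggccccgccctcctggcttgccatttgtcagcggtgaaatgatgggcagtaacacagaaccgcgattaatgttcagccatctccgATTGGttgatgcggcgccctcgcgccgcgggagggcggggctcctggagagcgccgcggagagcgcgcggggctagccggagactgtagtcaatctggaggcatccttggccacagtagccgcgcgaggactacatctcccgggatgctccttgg
The second *Cux2* start site held 1 copy of ATCGAT, which is its own reverse complement and was found in 304 of all 32851 promoters (0.925%). The *Cux1* promoter and the first *Cux2* promoter held none of the 4 motifs. The first *Tle4* promoter held CCAAT 2 times, and *Rorb* and *Tbr1* held it once in the first listed promoter, against 37.4% of all promoters with at least 1 copy. AGGTCA (16.3% of all promoters) and AGGTGTGA (1.28%) were not in any of the 12 promoter windows of the 8 genes. The first *Cux2* promoter was 80.3% G or C, against a median of 52.7% over all promoters.

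Excitatory neurons were the nuclei labelled neuron in which *Slc17a7*, the vesicular glutamate transporter of cortical projection neurons, was above *Gad1*, the enzyme gene of GABA synthesis. They numbered 1324 of 1664 neurons, with 191 and 220 in the WT and *Ehmt1*Δ/+ pools of the 96-well plates, and 210, 253, 220 and 230 in the WT, *Ehmt1*Δ/+, iTg and, last, *Ehmt1*Δ/+; iTg pools of the 384-well plates. Inhibitory neurons, with *Gad1* above *Slc17a7*, numbered 333, and 7 neurons were in neither class. The classes held to markers not used to set them: mean *Camk2a* was 128 to 215 RPKM in excitatory and 35.8 to 72.9 RPKM in inhibitory neurons of the 6 pools, and *Gad2*, a second enzyme gene of GABA synthesis, was 0.060 to 1.74 and 34.4 to 71.0 RPKM. The median read total was 333929 to 406930 in excitatory and 246009 to 369384 in inhibitory neurons, and only 39940 to 54877 in glia of the 384-well plates. *Ehmt1* itself went against the deletion labels, with 17.8 to 20.3 RPKM in excitatory neurons of the 3 *Ehmt1*+/+ pools and 30.5 to 34.0 RPKM in the 3 pools labelled *Ehmt1*Δ/+, and since the value does not read the deleted part alone, every direction by genotype rests on the labels. In the WT pool of the 96-well plates, *Gad1* was above 0 in 64.9% of excitatory neurons and 57.5% of oligodendrocytes, against 9.09% to 28.2% and 6.52% to 33.8% in the other 5 pools.

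In excitatory neurons, *Tbr1* and *Cux1* were detected in nearly every nucleus, and *Foxp2* in the fewest. *Tbr1* was above 0 in 95.3% and 98.6% of excitatory nuclei of the WT and *Ehmt1*Δ/+ pools in 96-well plates, and in 94.8% to 98.7% of the 4 pools in 384-well plates. *Foxp2* was above 0 in 30.4% and 33.2%, and in 25.7%, 28.1%, 27.7% and 29.1% of the WT, *Ehmt1*Δ/+, iTg and, last, *Ehmt1*Δ/+; iTg pools in 384-well plates. Exact 95% binomial intervals of these *Foxp2* shares spanned 19.9% to 39.8%, and all 6 overlapped. Intervals here cover counting error only. *Cux1* was detected in 90.9% to 98.4% of nuclei, *Tle4* in 69.6% to 80.5%, *Cux2* in 58.2% to 74.3%, *Bcl11b* in 51.4% to 62.8%, *Fezf2* in 40.7% to 49.2%, *Rorb* in 39.5% to 56.0% and *Etv1* in 37.3% to 61.3%. The 5 genes *Cux1*, *Cux2*, *Bcl11b*, *Tbr1* and *Tle4* were in more than 50% of the excitatory nuclei of every pool. The highest share of *Cux1*, *Cux2*, *Rorb*, *Etv1*, *Fezf2* and *Bcl11b* was in each case that of the WT pool in 96-well plates, where *Gad1* was also widely detected, and whether both have 1 source was not tested. An excitatory nucleus held a median of 5 or 6 of the 9 genes in every pool, and 15 of 1324 nuclei held all 9.

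By level per exon length, *Cux2*, *Tbr1* and *Tle4* led and *Foxp2* and *Etv1* came last. Mean *Cux2* in excitatory neurons was 10.8 and 10.9 RPKM in the WT and *Ehmt1*Δ/+ pools of the 96-well plates, and 33.2, 32.8, 30.0 and 19.2 RPKM in the WT, *Ehmt1*Δ/+, iTg and, last, *Ehmt1*Δ/+; iTg pools of the 384-well plates. Both 96-well pools were thus below all 4 pools of the 384-well plates, and the *Ehmt1*Δ/+; iTg pool was the lowest of its plate format. Mean *Tbr1* was 13.3 and 17.8 RPKM, and 15.2, 13.5, 14.0 and 17.2 RPKM, in the same order. Mean *Tle4* was 12.4 and 16.6 RPKM, and 11.6, 10.6, 11.8 and 15.7 RPKM. For both of these layer 6 genes the plate formats overlapped, and the highest 2 pools were the *Ehmt1*Δ/+ pool of the 96-well plates and the *Ehmt1*Δ/+; iTg pool. Within a pool the order of the 9 means was stable only in part: *Tbr1* ranked 1 or 2, *Cux2* 1 to 3 and *Tle4* 2 to 4, while *Cux1*, *Fezf2*, *Rorb* and *Bcl11b* took ranks 3 to 7 and their pool means overlapped (7.88 to 12.1, 7.81 to 10.98, 5.10 to 7.96 and 4.93 to 8.02 RPKM). Mean *Etv1* (0.881 to 3.73 RPKM) and *Foxp2* (0.977 to 2.90 RPKM) were below all others in every pool. The spread across nuclei was as large as the mean or larger for 8 of the genes in every pool, and for *Tbr1* it was below the mean in every pool, for example 14.0 ± 11.9 RPKM (SD over 220 nuclei) in the iTg pool.

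**Figure D1:**
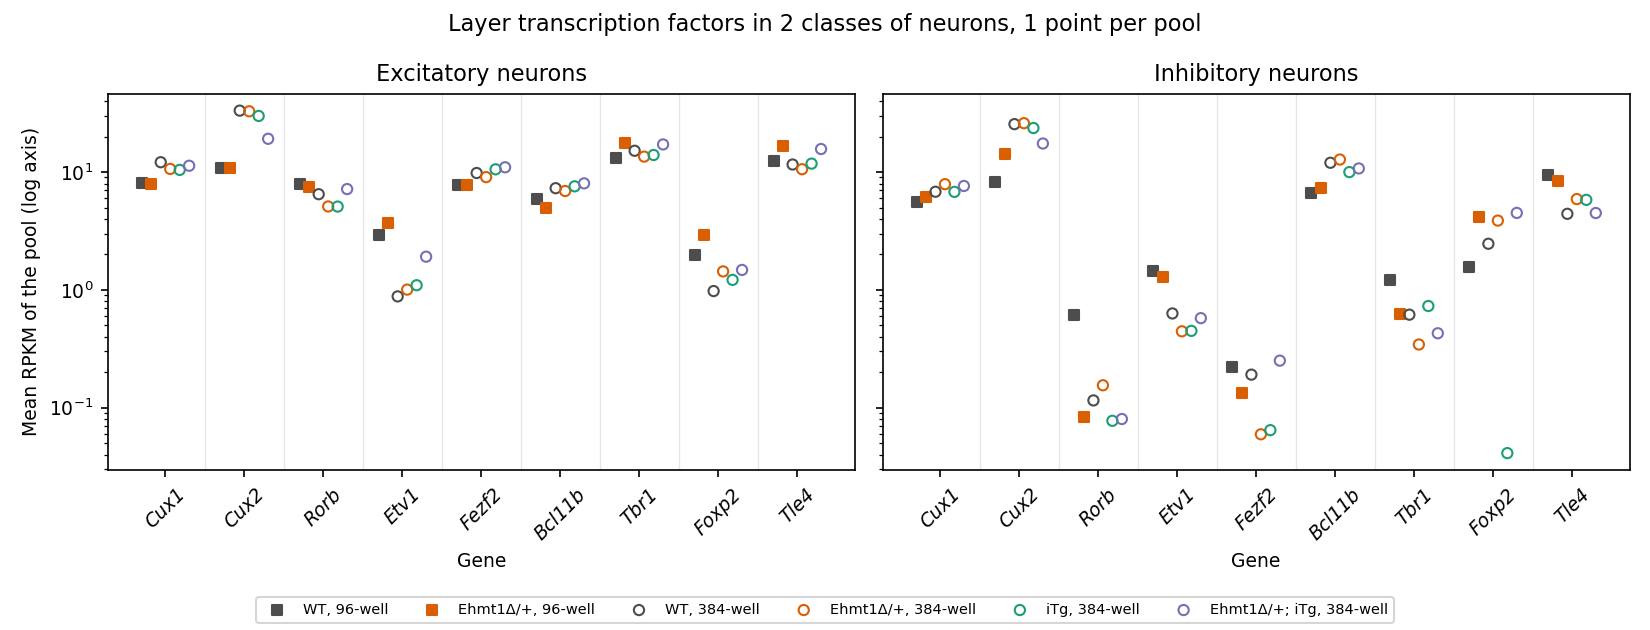
Mean RPKM of each of the 9 genes (log axis) in excitatory (left) and inhibitory (right) neurons, with 1 point for each of the 6 pools (squares, 96-well plates; circles, 384-well plates). *Rorb*, *Fezf2* and *Tbr1* lie at 5.10 RPKM or more in excitatory neurons of every pool and at 1.20 RPKM or less in inhibitory neurons, while *Cux1*, *Cux2*, *Bcl11b* and *Tle4* are at 4.42 RPKM or more in both classes.

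Within single nuclei, *Cux2* and *Rorb* were found together more often than their shares gave, as were *Fezf2*, *Bcl11b*, *Foxp2* and *Tle4* with one another, while pairs across these sets were mostly found together less often. If detection of 2 genes were unrelated, the number of nuclei with both would be the product of both shares, so the observed number was divided by that product in each pool. Of the 36 pairs, 11 were seen together less often than the product in all 6 pools and 11 more often in all 6 pools. Pairs of other genes were not counted in this way, so these counts have no background to be set against. The highest median ratio was that of *Fezf2* and *Foxp2*. They were found together in 47 of 191 and 60 of 220 excitatory nuclei of the WT and *Ehmt1*Δ/+ pools in 96-well plates, and in 44 of 210, 58 of 253, 49 of 220 and 59 of 230 nuclei of the 384-well pools, where the products gave 28.5, 35.2, 24.4, 28.9, 25.8 and 32.3 nuclei. The ratio was therefore 1.65 to 2.01, and 80.3% to 88.1% of the *Foxp2*-positive nuclei were also *Fezf2*-positive. *Bcl11b* and *Foxp2* (ratio 1.37 to 1.66), *Fezf2* and *Bcl11b* (1.13 to 1.38), *Foxp2* and *Tle4* (1.11 to 1.36), *Etv1* and *Fezf2* (1.11 to 1.36) and, among upper layer genes, *Cux2* and *Rorb* (1.11 to 1.36) were also above 1 in every pool. Layer labels did not give every direction: *Fezf2* and *Bcl11b* were above 1 in every pool with both *Foxp2* and *Tle4* of another layer. *Etv1*, of the same layer label as *Fezf2* and *Bcl11b*, was below 1 with *Tbr1* in every pool (0.951 to 0.993). *Etv1* and *Foxp2* had a median ratio of 0.874 with r below 0 in all 6 pools. *Rorb* and *Tbr1* were above 1 in every pool (1.003 to 1.025), but *Tbr1* was in nearly all nuclei, which holds its ratios near 1. The r of *Rorb* and *Tbr1* had a median of 0.01 and was below 0 in 3 of the 6 pools.

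The lowest median ratio over the 6 pools was that of *Rorb* and *Bcl11b*, with 55, 31, 27, 41, 26 and 33 nuclei holding both, in the pool order above, where the products gave 67.2, 54.9, 53.0, 62.1, 45.5 and 57.1. The ratio was 0.82 in the WT pool of the 96-well plates and 0.51 to 0.66 in the other 5 pools. *Cux2* and *Fezf2* had 0.89 in that WT pool and 0.50 to 0.67 in the others, and *Cux2* and *Foxp2* had 0.88 and 0.54 to 0.71. The WT pool of the 96-well plates was thus the closest to 1 for these 3 pairs, and it was also the pool with the most *Gad1* in excitatory neurons. Nuclei in which *Gad1* was 0 numbered 67 of the 191 in that WT pool. Among such nuclei that pool was the closest to 1, at 0.905 for *Rorb* and *Bcl11b* (0.485 to 0.658 in the other 5 pools), 0.869 for *Cux2* and *Fezf2* (0.486 to 0.666) and 0.910 for *Cux2* and *Foxp2* (0.487 to 0.722). Whether the *Gad1* values and these ratios have a shared source was not tested. *Tbr1*, which was in nearly all nuclei, had a median ratio between 0.97 and 1.01 with each of the other 8 genes. *Cux1*, also in nearly all, ranged from 0.949 to 1.044.

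Levels gave a wider contrast than detection for the genes found in most nuclei. Across excitatory nuclei of a pool, Pearson's r of log2(RPKM + 1) is given here as a description only, since the nuclei share plates, libraries and mice. *Cux1* and *Cux2* had the highest r, at 0.70 to 0.78 over the 6 pools. Their promoters, printed above, differ in G and C content (65.0% for *Cux1*, 80.3% and 56.7% for *Cux2*). Of the values above 0, 21.2% for *Cux1* and 20.4% for *Cux2* were not whole reads, for a reason the sources used here do not give, and in the nuclei with whole reads of both genes the median r was 0.70. *Foxp2* and *Tle4* followed with 0.56 to 0.73. The most negative r were those of *Cux2* with *Bcl11b* (-0.68 to -0.59), *Cux2* with *Fezf2* (-0.64 to -0.52) and *Cux1* with *Fezf2* (-0.63 to -0.43). In all, r was above 0 in all 6 pools for 13 pairs and below 0 in all 6 for 17 pairs. Over all 21652 genes measured, 8.73% to 17.7% were above 0 with a given factor in all 6 pools. By the same count, 6.45% to 18.97% were below 0. *Tbr1*, detected almost everywhere, still had an r above 0 in all 6 pools with *Foxp2* (0.27 to 0.40) and *Tle4* (0.12 to 0.35), below 0 with *Etv1* (-0.40 to -0.17), and had a median r of 0.00 with *Fezf2*.

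**Figure D2:**
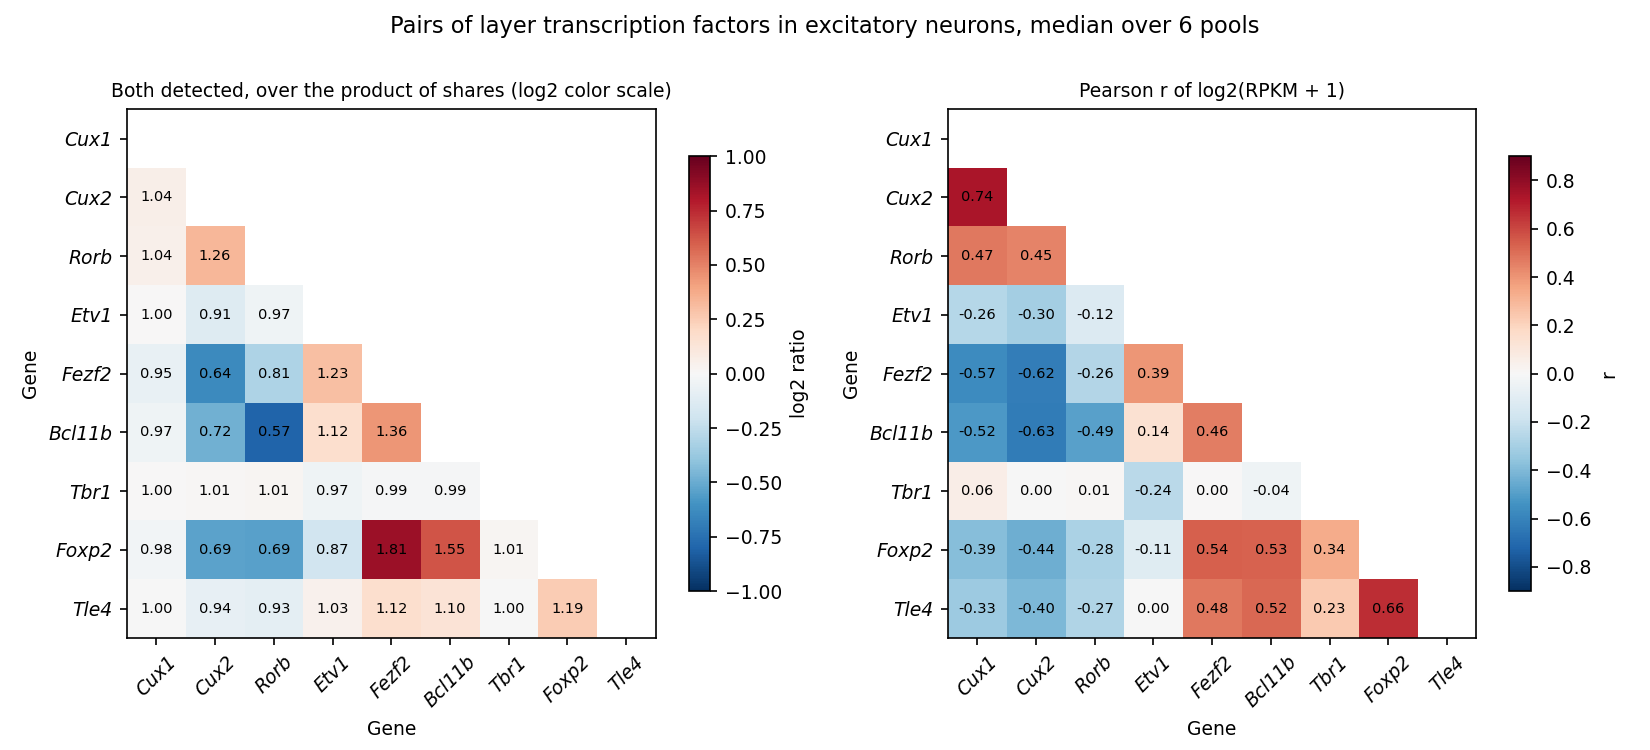
Each square is 1 of the 36 pairs of the 9 genes in excitatory neurons, as the median over 6 pools, with the observed number of nuclei holding both genes over the product of their shares (left, colored on a log2 scale) and Pearson's r of log2(RPKM + 1) across nuclei (right). *Cux1*, *Cux2* and *Rorb* are red with one another, as are *Fezf2*, *Bcl11b*, *Foxp2* and *Tle4*, and the 2 sets are blue with each other or near 1, from *Fezf2* with *Foxp2* at 1.81 to *Rorb* with *Bcl11b* at 0.57.

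The genes whose levels were most like each factor across excitatory nuclei were ranked by the median r over the 6 pools, among 12774 named genes detected in at least 10% of nuclei in every pool. The strongest was *Syt6*, a synaptotagmin gene of layer 6, with *Foxp2* (median r 0.88, 0.83 to 0.90), followed by *Slc12a4* and *Arhgap25* (both 0.68). *Tle4* was nearest to *Foxp2* itself (0.66), *Syt6* (0.63) and *Rai14* (0.60). *Rorb* was nearest to *Rspo1* (0.65), a secreted Wnt signaling enhancer, to *Kcnh5* (0.62), a potassium channel gene, and to *Myo16* (0.62). *Cux1* was nearest to *Cux2* (0.74) and *Tmem215* (0.60), and *Cux2* to *Cux1*, *Spag5* (0.67) and *Rasgrf2* (0.63), a Ras exchange factor gene. *Fezf2* was nearest to *Sulf2* (0.62), *Sstr4* (0.60), a somatostatin receptor gene, and *Sez6* (0.59), and *Bcl11b* to *Sstr4* (0.63), *Dscaml1* (0.61) and *Rab34* (0.61). *Etv1* (*Vav2* and *Raver2* 0.42, *Fezf2* 0.39) and *Tbr1* (*Epb41* and *Pcdh9* 0.46, *Ablim1* 0.45) had no gene above a median r of 0.46. With the log10 read total of the nucleus removed, the nearest gene of each factor was the same for all 9.

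Genes of other layer lists were then set against each factor across the same nuclei, again as a description. The lists were chosen with earlier results of these data known. They also hold genes named above as nearest to a factor, such as *Syt6*, *Rspo1*, *Kcnh5* and *Rasgrf2*. Their r values are therefore not independent support for the layer labels. The 7 measured layer 6 genes had a median r of 0.59 with *Foxp2*, 0.40 with *Tle4*, 0.39 with *Bcl11b*, 0.30 with *Fezf2* and 0.23 with *Tbr1*, where the median over all 21652 genes measured was between -0.01 and 0.02 for each factor. All 7 were above 0 in all 6 pools for *Foxp2*, *Tle4*, *Bcl11b* and *Tbr1*, and 5 of 7 for *Fezf2*. Against *Foxp2*, they ranged from *Ntsr1* (0.22), a neurotensin receptor gene, to *Syt6*. The 8 layer 4/5a genes had a median r of 0.46 with *Rorb*, with 7 above 0 in all pools, and the exception was *Deptor* (0.04, -0.07 to 0.11). The 7 layer 2/3 genes had a median r of 0.21 with *Cux2* and 0.11 with *Cux1*: *Rasgrf2* (0.63), *Calb1* (0.43), the calbindin gene, and *Enpp2* (0.40) were high with *Cux2*, while *Cdh13*, a cadherin gene, was below 0 in all 6 pools (-0.21). The 8 layer 5b genes had a median r of 0.25 with *Bcl11b*, 0.24 with *Fezf2* and 0.18 with *Etv1*. With *Cux2* and *Rorb* they were below 0 in all 6 pools for 8 of 8. For *Bcl11b* and *Fezf2* the layer 6 genes had a higher median (0.39 and 0.30), and for *Etv1* a lower one (-0.15). *Crym* (0.53) and *Ldb2* (0.40) led with *Fezf2*, and *Tshz2* (0.32) led with *Etv1*. The share of all genes above 0 in all 6 pools was 8.73% to 17.7% and below 0 was 6.45% to 18.97%, by factor. Of the layer 6b genes only 1 of 4 was measured in every pool.

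**Figure D3:**
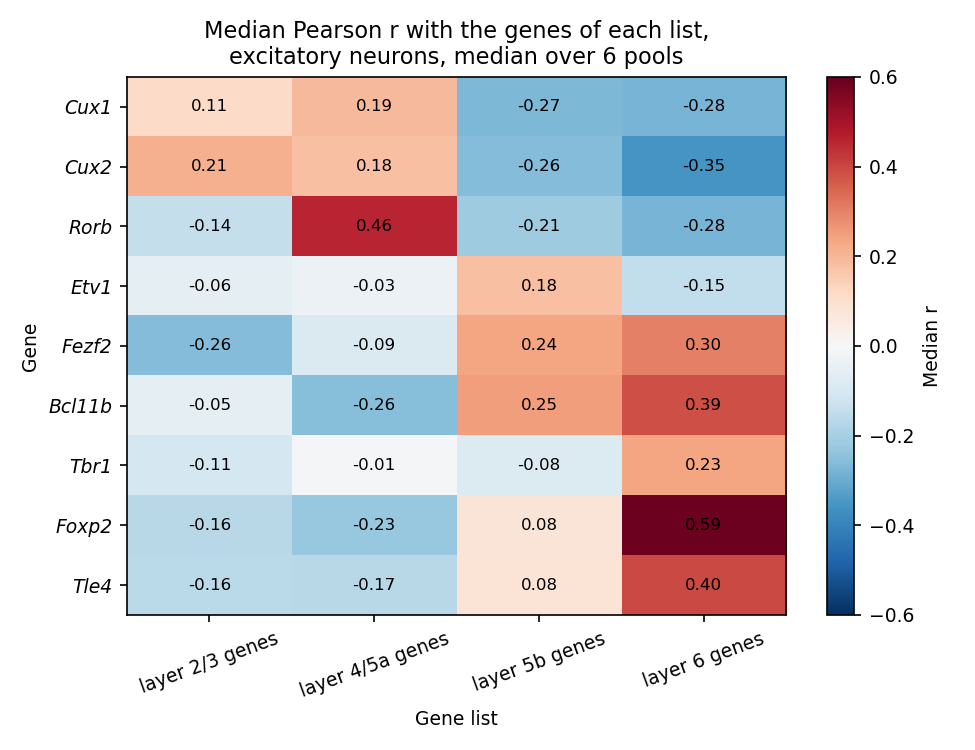
Median Pearson r of each factor with the genes of 4 layer lists across excitatory nuclei, as the median over the 6 pools (red, above 0; blue, below 0). The highest squares are *Foxp2* with layer 6 genes (0.59) and *Rorb* with layer 4/5a genes (0.46), and *Cux1*, *Cux2* and *Rorb* are below 0 with the layer 5b and layer 6 genes.

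Against inhibitory neurons, 6 of the 9 genes were higher in excitatory neurons, *Bcl11b* was lower, and *Cux2* and *Foxp2* did not pass the test. The comparison used the pool means of both classes in the 6 pools, with the pool as a block, by limma on log2(mean RPKM + 0.1) with Benjamini-Hochberg adjustment over 28367 genes. A fold is given on this scale, which understates the fold of low genes. Of all genes tested, 17.9% were higher and 19.5% lower in excitatory neurons. *Fezf2* was 7.85 and 7.81 RPKM in excitatory neurons of the WT and *Ehmt1*Δ/+ pools in 96-well plates, and 9.82, 9.06, 10.6 and 10.98 RPKM in the 384-well pools, against 0.222, 0.133, 0.191, 0.0595, 0.0645 and 0.251 RPKM in inhibitory neurons. The lowest excitatory value was far above the highest inhibitory one, with a log2 difference of 5.28 ± 0.20 (SE, adjusted p = 1.4e-05 by limma). *Rorb* (5.10 to 7.96 against 0.0774 to 0.613 RPKM) differed by 4.73 ± 0.25 (adjusted p = 3.8e-05 by limma) and *Tbr1* (13.3 to 17.8 against 0.344 to 1.20 RPKM) by 4.41 ± 0.22 (adjusted p = 3.2e-05 by limma). The highest inhibitory values of *Rorb* and *Tbr1* were those of the WT pool in 96-well plates, where *Tbr1* was found in 54.8% of inhibitory neurons against 17.3% to 30.2% in the other pools.

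The other factors differed by less between the classes. *Etv1* (log2 difference 1.10 ± 0.15, adjusted p = 0.0018 by limma), *Tle4* (1.06 ± 0.18, adjusted p = 0.0037 by limma) and *Cux1* (0.55 ± 0.08, adjusted p = 0.0022 by limma) were higher in excitatory neurons in 6 of 6 pools. These 3 calls depended on the setting: on means of log2(RPKM + 1), *Cux1* was at -0.046 (adjusted p = 0.45 by limma) and *Tle4* at 0.39 (adjusted p = 0.066 by limma), and with only 1 of *Slc17a7* and *Gad1* above 0, *Etv1* was at 1.08 (adjusted p = 0.16 by limma). *Bcl11b* was 5.96 and 4.93 RPKM in excitatory neurons of the 96-well pools and 7.30, 6.91, 7.57 and 8.02 RPKM in those of the 384-well pools, against 6.61, 7.36, 12.0015, 12.8, 9.998 and 10.7 RPKM in inhibitory neurons. It was lower in excitatory neurons in 6 of 6 pools, by 0.52 ± 0.11 on the log2 scale (adjusted p = 0.0093 by limma), and it was found in 74.0% to 91.8% of inhibitory neurons. *Cux2* was found in 90.0% to 97.7% of inhibitory neurons, more than in excitatory neurons of any pool, at 8.21, 14.3, 25.5, 26.0, 23.7 and 17.5 RPKM. Its log2 difference was 0.20 ± 0.12 (adjusted p = 0.25 by limma). The *Cux2*-positive nuclei held 14.5 to 52.5 RPKM on average in excitatory neurons and 8.49 to 27.6 RPKM in inhibitory neurons, so *Cux2* was in a smaller share of excitatory nuclei at a higher level, and on means of log2(RPKM + 1), which weight detection more, it was lower in excitatory neurons by 1.07 ± 0.12 (adjusted p = 2.4e-04 by limma). Without the *Ehmt1*Δ/+ pool of the 96-well plates, the only one with *Cux2* lower in excitatory neurons, the difference was 0.31 ± 0.08 (adjusted p = 0.030 by limma).

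*Foxp2* in inhibitory neurons came from few nuclei with high values. Its mean was 1.58, 4.12, 2.46, 3.88, 0.0411 and 4.50 RPKM in inhibitory neurons of the WT and *Ehmt1*Δ/+ pools of the 96-well plates and the WT, *Ehmt1*Δ/+, iTg and, last, *Ehmt1*Δ/+; iTg pools of the 384-well plates. The iTg pool stood far below the other 5. Nuclei above 10 RPKM, a limit chosen after the values were seen, numbered 5 of 62, 5 of 43, 7 of 73, 6 of 52, 0 of 53 and 6 of 50, and in the 5 pools that had them they held 81.6% to 99.2% of the summed *Foxp2* value. A count of 0 of 53 allows a share of up to 5.66% if 3 nuclei are taken as the limit of a count of 0, and the exact 95% interval, by its own rule, runs from 0 to 6.72%. It overlapped those of the other pools, which began at 2.67% to 4.53%. The log2 difference between classes was -0.19 ± 0.64 (adjusted p = 0.84 by limma).

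Among 24 other transcription factors of cortical layers, 19 were higher and 1 lower in excitatory neurons by the same test, with a median log2 difference of 1.60 against -0.02 over all genes and 1.06 over the 9 factors. *Neurod2* (5.42 ± 0.52) and *Neurod6* (5.34 ± 0.37), proneural factors, and *Emx1* (4.45 ± 0.38), a homeobox factor of the dorsal telencephalon, were among those that differed the most, and *Bcl6* was lower in excitatory neurons (-0.88 ± 0.23). *Pou3f1*, *Pou3f3*, *Nfib* and *Id2* did not pass. Of the layer 2/3 genes, 6 of 7 were lower in excitatory neurons, with *Cdh13* at -1.89 ± 0.13 and *Otof* at -1.69 ± 0.33, and *Enpp2* was higher (2.05 ± 0.26). The layer 4/5a genes had 6 of 8 higher and 1 lower, the layer 5b genes 4 and 3 of 8, the layer 6 genes 4 and 1 of 8, and the layer 6b genes 1 and 1 of 3 tested. *Syt6*, the gene nearest to *Foxp2*, was lower in excitatory neurons (-0.85 ± 0.24).

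In microglia and oligodendrocytes, *Rorb*, *Fezf2*, *Bcl11b* and *Foxp2* were found in at most 20.5% of the nuclei of any pool. The ranges of *Cux1* (43.5% to 100% of nuclei), *Tle4* (18.3% to 90.6%), *Etv1* (18.3% to 77.5%) and *Cux2* (8.70% to 73.2%) reached higher. *Cux2* was in 72.6% and 73.2% of oligodendrocytes of the 96-well pools and 30.4% to 61.2% of those in 384-well plates, at 3.24 to 9.81 RPKM, and in 8.70% to 44.4% of microglia. In microglia *Cux1* was found in 81.2% to 100% of nuclei at 9.67 to 19.3 RPKM, and *Tle4* in 35.0% to 90.6% at 8.79 to 16.4 RPKM, levels that overlapped those of excitatory neurons. *Etv1* was found in 72.2% and 46.9% of microglia and 72.6% and 77.5% of oligodendrocytes of the WT and *Ehmt1*Δ/+ pools in 96-well plates, at 5.42, 4.92, 4.54 and 4.76 RPKM, above the 2.94 and 3.73 RPKM of excitatory neurons. In the 384-well plates, where glia had far fewer reads, *Etv1* was found in 18.3% to 41.8% of oligodendrocytes at 0.841 to 1.99 RPKM. Of all *Etv1* values above 0, 40.0% were not whole reads, the most of the 9 genes. *Fezf2*, whose values in excitatory neurons were all whole reads, was in 0% to 12.3% of oligodendrocytes. *Tbr1* was in 43.8% of oligodendrocytes of the WT pool in 96-well plates, 14.1% of the *Ehmt1*Δ/+ pool there, and 4.23% to 5.97% in the 384-well pools, at 3.77, 0.652 and 0.202 to 0.805 RPKM. *Snap25*, a neuronal synapse gene, followed the same order in oligodendrocytes, with 100%, 70.4% and 15.5% to 40.3% of nuclei, and its part in the *Tbr1* values was not tested.

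**Figure D4:**
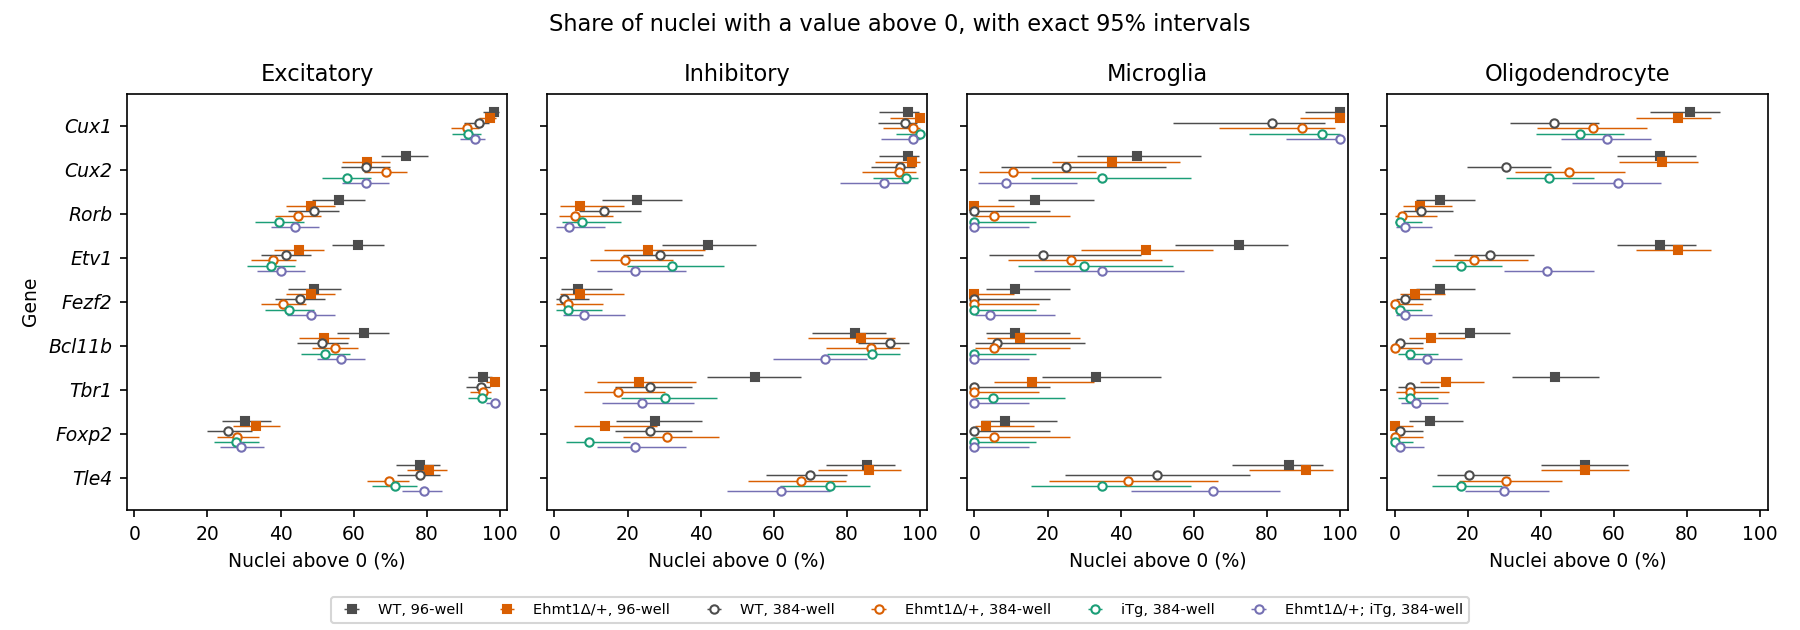
Share of nuclei with a value above 0 for each gene (percent, with exact 95% intervals that cover counting error only) in 4 classes of nuclei, with 1 marker per pool (filled squares, 96-well; open circles, 384-well). *Cux1* is at 90.9% or more in excitatory and inhibitory neurons of every pool and at 81.2% or more in microglia, *Cux2* and *Bcl11b* are found more often in inhibitory than in excitatory neurons, and *Tbr1* of the WT pool in 96-well plates stands out in inhibitory neurons and both glial classes.

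In excitatory neurons *Cux1*, *Cux2*, *Fezf2* and *Bcl11b* were higher in all 4 pools of the 384-well plates than in both 96-well pools, *Rorb*, *Etv1* and *Foxp2* were lower, and *Tbr1* and *Tle4* overlapped. By the mean over pools, *Cux2* was 2.66 times as high in the 384-well plates and *Etv1* was 2.72 times as high in the 96-well plates. Of 26597 genes, 65.9% did not overlap between the plate formats (21.8% higher and 44.1% lower in 384-well plates), so 7 of 9 is near the background, and no test was run. The plate format cannot be told apart from the iTg allele, which every pool of the 384-well plates carried, or from the sequencing runs.

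Between the pools labelled *Ehmt1*Δ/+ and WT, none of the 9 factors passed the test in excitatory neurons, and *Foxp2* had the largest difference in both plate formats. The test used 4 pools with the plate format as a block, which leaves 1 residual degree of freedom, and called 0 of 23780 genes (0.0%) at an adjusted p under 0.05 by limma, while 8.95% had an unadjusted p under 0.05. In the 96-well plates mean *Foxp2* was 1.97 RPKM for WT against 2.90 RPKM for *Ehmt1*Δ/+, and 0.977 and 1.44 RPKM in the 384-well plates. The pool labelled *Ehmt1*Δ/+ was higher within each plate format, by 0.54 and 0.51 on the log2 scale, but the 384-well pool labelled *Ehmt1*Δ/+ was still below the 96-well WT pool. The fitted difference was 0.52 ± 0.11 (SE, unadjusted p = 0.011, adjusted p = 0.53 by limma). The difference was 0.35 with a pseudocount of 1 and 0.18 on means of log2(RPKM + 1). The SE rests on 1 residual degree of freedom and on a spread that limma shares over genes, not on replicate pools. The share of *Foxp2*-positive excitatory nuclei was 30.4% and 33.2%, and 25.7% and 28.1%, and positive nuclei held 6.47 and 8.74 RPKM, and 3.80 and 5.11 RPKM, on average. Sample titles carry 4 codes in each 96-well pool, of which 3 are shared between WT and *Ehmt1*Δ/+. The same well positions recur in both pools under a shared code, so a code is not 1 plate. Within the shared codes *Foxp2* was 1.32 and 2.53 RPKM, 1.10 and 2.87 RPKM, and 2.88 and 3.89 RPKM in WT and *Ehmt1*Δ/+, higher in *Ehmt1*Δ/+ in 3 of 3. The codes not shared went the other way, with 2.64 RPKM in WT and 2.33 RPKM in *Ehmt1*Δ/+. The share of *Foxp2*-positive nuclei in the shared codes was 30.6% and 30.0%, 20.4% and 39.7%, and 39.1% and 38.9%, in the same order. Nuclei of different codes come from the same pool of mice and are not replicates, so no test was run on them. In the 384-well plates the WT pool has a code of its own and the other 3 pools share another, so there the code cannot be told apart from WT.

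The other factors differed by less. *Etv1* was higher in the pool labelled *Ehmt1*Δ/+ in both plate formats (0.25 ± 0.12, adjusted p = 0.61 by limma), and *Rorb* (-0.21 ± 0.13, adjusted p = 0.69 by limma), *Bcl11b* (-0.17 ± 0.12), *Cux1* (-0.11 ± 0.11) and *Fezf2* (-0.06 ± 0.11) were lower in both. *Tbr1* was 17.8 RPKM in the pool labelled *Ehmt1*Δ/+ against 13.3 RPKM in WT of the 96-well plates, and 13.5 against 15.2 RPKM in the 384-well plates, so its direction turned with the plate format, as did that of *Tle4*. *Cux2* differed by 0.02 and -0.02 in the 2 plate formats. The median over all genes was -0.03. None of the 24 other layer transcription factors and none of the tested genes of the layer lists passed. The 7 tested layer 6 genes had a median difference of 0.32, with adjusted p of 0.53 to 0.83 by limma.

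Induction of the transgene was compared between the 2 pools with *CamKII-CreER* and the 4 pools without it. The test was limma over 26597 genes, with the plate format and the deletion as terms and 2 residual degrees of freedom. The *Ehmt1* ranges given above, of the *Ehmt1*+/+ pools and of those labelled *Ehmt1*Δ/+, each span pools with and without *CamKII-CreER*. That the transgene was induced thus rests on the labels. No gene was called (0.0%), 3.8% had an unadjusted p under 0.05, and none of the 9 factors passed. The largest fitted differences were those of *Etv1* (0.58 ± 0.22, unadjusted p = 0.047, adjusted p = 0.99 by limma) and *Cux2* (-0.46 ± 0.24, unadjusted p = 0.11, adjusted p = 0.99 by limma). Both were widest with the *Ehmt1*Δ/+; iTg pool. Mean *Etv1* in the 384-well plates was 0.881 and 1.01 RPKM in the WT and *Ehmt1*Δ/+ pools and 1.10 and 1.91 RPKM in the iTg and *Ehmt1*Δ/+; iTg pools. Mean *Cux2* in that order was 33.2, 32.8, 30.0 and 19.2 RPKM. *Cux2* was detected in 63.3%, 68.8%, 58.2% and 63.5% of excitatory nuclei of these pools, with overlapping exact intervals, and the positive nuclei held 52.5, 47.7, 51.5 and 30.2 RPKM on average. The share of *Cux2*-positive nuclei in the *Ehmt1*Δ/+; iTg pool was thus within the range of the other pools, and their level was below it. Without that pool the *Cux2* difference was -0.14 and the *Etv1* difference 0.33. *Snap25* also set the pool apart, with 125 RPKM in its excitatory neurons against 68.8 to 71.4 RPKM in the other 384-well pools and 141 RPKM in both 96-well pools, and the part of this in the *Cux2* and *Etv1* values was not tested. *Cux2*, *Etv1* and *Snap25* of this pool each lay between those of the other 384-well pools and the 96-well pools, as did *Rorb* (7.18 RPKM) and *Foxp2* (1.48 RPKM). *Fezf2* (10.98 RPKM) and *Bcl11b* (8.02 RPKM) did not, being the highest of all pools and away from the 96-well values. *Cux1* (11.3 RPKM) was within the range of the other 384-well pools. A test of whether induction acted differently with and without the deletion called 0 of 26597 genes (0.0%) by limma, with 23.4% at an unadjusted p under 0.05, and gave *Cux2* -0.64 ± 0.19 (adjusted p = 0.20) and *Rorb* 0.69 ± 0.23 (adjusted p = 0.22). That fit left 1 residual degree of freedom, which is only how the deletion difference varied between the plate formats. Its SE therefore does not come from replicate pools. The median induction difference over the 9 factors was 0.13, against 0.02 over all genes, and none of the genes of the layer lists passed.

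**Figure D5:**
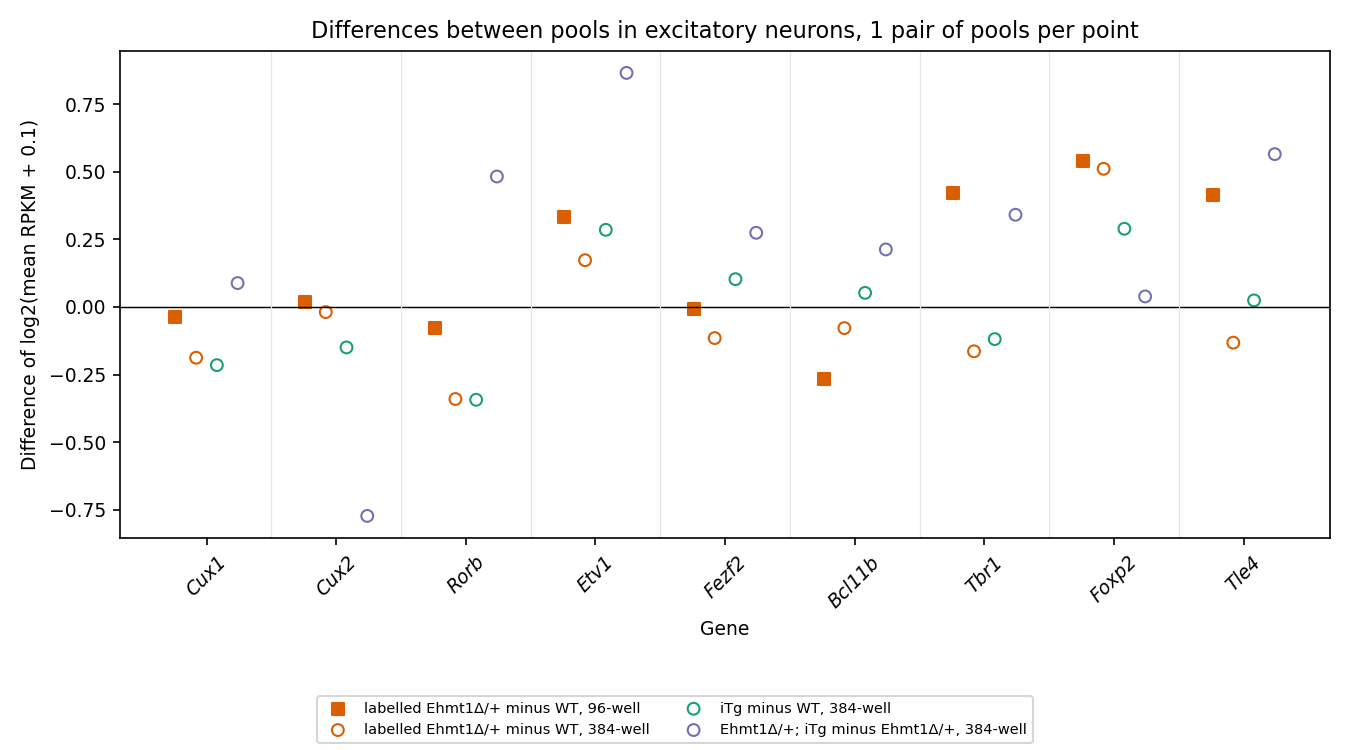
Difference of log2(mean RPKM + 0.1) between 2 pools in excitatory neurons for each gene, as filled squares (96-well plates) and open circles (384-well plates). The *Ehmt1*Δ/+; iTg pool minus the *Ehmt1*Δ/+ pool gives the lowest and the highest value, from *Cux2* at -0.77 to *Etv1* at 0.87, and *Foxp2* is above 0.5 in the pool labelled *Ehmt1*Δ/+ minus WT in both plate formats.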

How the data were processed

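RNA of sorted single nuclei was measured by RamDA-seq in 2 plate formats. The authors trimmed reads with Fastq-mcf, aligned them to mm10 with HISAT2 2.0.4, counted them over Gencode genes with featureCounts (Subread 1.5.0), and deposited 1 table of RPKM per plate format. Their edgeR test on nuclei was not repeated, because RPKM values are not counts.

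Gene IDs were matched to names without their version. Values were averaged over the nuclei of a class in each pool and tested as log2(mean RPKM + 0.1) with limma 3.58.1 in R 4.3.3. Genes tested were those detected in at least 10% of the nuclei of a pool, with adjusted p under 0.05 as a call. For the deletion, a gene had to reach this share in the same genotype in both plate formats. A p-value rests on the spread between pool means left by the terms of the test, which limma draws toward a spread shared over genes. For the deletion, that spread is only how the difference varies between the plate formats, since no genotype has replicate pools within a format. The tests were also run on pool means simulated from the fitted values and spread of each test. Such data repeat the assumptions of the test and cannot show that they hold for the real pools. Read totals were recovered from the steps between RPKM values, and a median of 30.0% (96-well) and 25.8% (384-well) of the values were not whole reads. Intervals are exact binomial at 95% and cover counting error only. Genes nearest to each factor were the 3 highest by median Pearson r of log2(RPKM + 1), and genes of the lists were named where they were called, or else the 3 of highest mean RPKM. *Ntsr1*, *Snap25* and the 4 other layer factors that did not pass were named after their values were seen. The 9 factors and the lists were chosen with earlier results of these data known. Alternatives were another pseudocount, filter, class rule and mean, and each pool left out. Values of a few genes that the naming rule picked are not reported here.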

Additional observations from a re-analysis of the deposited data

Results flagged for a closer look

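In some comparisons the difference of a factor had opposite signs in 2 pairs of pools in excitatory neurons. The values are differences of log2(mean RPKM + 0.1), each from 1 pool against 1 pool. Between the plate formats, the deletion difference of *Tbr1* was -0.16 in 384-well and 0.42 in 96-well plates (-0.59 between them), that of *Tle4* was -0.13 and 0.42 (-0.55), and that of *Cux2* was -0.02 and 0.02 (-0.037). Both *Cux2* values were smaller in size than the SE of its fitted deletion difference (0.11). These differences between plate formats were not tested. The induction difference of *Rorb* was 0.48 with the deletion and -0.34 without it (0.83 between them), that of *Tbr1* was 0.34 and -0.12 (0.46), and that of *Cux1* was 0.09 and -0.21 (0.30). The interaction of deletion and induction by limma over all genes gave adjusted p of 0.22 for *Rorb*, 0.79 for *Tbr1* and 0.53 for *Cux1*. *Tbr1* and *Tle4* were both higher in the pool labelled *Ehmt1*Δ/+ of the 96-well plates and both lower in that of the 384-well plates, and their levels had an r above 0 across nuclei in all 6 pools.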

How the results depend on the processing

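*Rorb*, *Fezf2*, *Tbr1* and *Bcl11b* kept their direction and their call between excitatory and inhibitory neurons under all 12 other settings tried. No alternative gave a call for a factor in the deletion or the induction comparison. On means of log2(RPKM + 1), the difference between classes was -0.046 for *Cux1*, no longer called,, -1.07 for *Cux2* and 0.048 for *Foxp2*, and *Tle4* was no longer called (0.39, adjusted p = 0.066 by limma), while the deletion difference was -0.017 for *Etv1* and -0.0036 for *Tle4*. With a pseudocount of 0.01, *Foxp2* was 0.0067 between classes. With only 1 of *Slc17a7* and *Gad1* above 0, 3109 genes were higher and 2565 lower in excitatory neurons, in place of 5073 and 5526, and *Etv1* was not called (1.08, adjusted p = 0.16 by limma). The deletion difference was 0.092 for *Cux2* and 0.081 for *Fezf2* over all nuclei labelled neuron, and 0.13 for *Bcl11b* without *Gad1*-positive nuclei. With each pool left out, the induction difference was -0.18 to 0.051 for *Cux1*, -0.28 to 0.42 for *Rorb* and -0.15 to 0.37 for *Tbr1*, and *Foxp2* between classes was -0.87 to 0.081. The deletion difference of *Foxp2* was 0.18 on means of log2(RPKM + 1) and 0.35 with a pseudocount of 1. Leaving out a pool in the deletion comparison leaves 1 plate format, with values and no test. The causes of these changes were not tested. Counting only values of at least 2 reads, the median ratio of *Cux2* with *Foxp2* was 0.39 and that of *Fezf2* with *Foxp2* 2.12. No paired analysis was possible because the labels number no replicates and each pool is 1 sample. The codes that pools share in sample titles divide a pool without adding mice. The few pools limit the deletion and induction tests, and glia of the 384-well plates limit detection by their few reads.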
